A study of Mus musculus with 6 samples.

Results

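The TAM receptors and a small group of their partners in the clearance of dying cells were examined in melanoma macrophages. The 7 genes, *Mertk*, *Axl*, *Tyro3*, *Gas6*, *Pros1*, *Mfge8* and *Timd4*, were taken by symbol from the 23424 genes counted in each library, and each symbol matched 1 gene. In the name of the receptors TAM stands for Tyro3, Axl and Mertk, so tumor-associated macrophages are called tumor macrophages here. The cells came from tumors of YUMM1.7, a mouse melanoma line driven by mutant Braf with loss of Cdkn2 among its changes, grown in the skin of untreated wild-type C57Bl/6J female mice that were 8 weeks old when the tumors were started. At day 21, live CD45+ CD11b+ cells negative for lineage markers were sorted by the level of F4/80, a surface protein of macrophages encoded by *Adgre1*, into an F4/80high and an F4/80low subset. The same gate, strain and tumor line served both subsets, which were divided by F4/80. Each library pooled 10 tumors of 1 of 3 independent experiments, which gave 3 libraries a subset, numbered by replicate. The study placed replicates 1 and 2 in batch 1 and replicate 3 in batch 2.

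Mertk, Axl and Tyro3 are receptor tyrosine kinases that do not touch dying cells directly. Gas6 and protein S (*Pros1*), secreted proteins that need vitamin K for their carboxylation, bind phosphatidylserine on the dying cell at one end and a TAM receptor at the other. Gas6 can engage all TAM receptors, whereas protein S acts through Mertk and Tyro3. *Mfge8* encodes another secreted bridge, from phosphatidylserine to integrins, and *Timd4* encodes Tim-4, a membrane protein that binds phosphatidylserine itself and marks several long-lived tissue macrophages. Engulfment of dying cells by these routes, called efferocytosis, is known to dampen inflammation in macrophages.

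Values of a subset are listed in the order of replicates 1, 2 and 3. The F4/80high libraries held 30292061, 43604373 and 16045281 counts in total, the F4/80low libraries 32967733, 32560608 and 16204810. Those of replicate 3 were the shallowest, and *Lars2* with 2 other features (*Gm23935*, *Gm15564*) held 17.1% of the counts of the F4/80high and 16.1% of the F4/80low library, beside 0.378% to 0.609% in each of the other libraries. Values are given in CPM, counts scaled to a common library size after TMM normalization (edgeR). The sorted cells carried macrophage genes in every library. *Csf1r*, the receptor for the macrophage growth factor, ranged from 437 to 1413 CPM. *Cd68*, a lysosomal macrophage protein, measured 361, 1118 and 250 CPM in the F4/80high libraries and 298, 505 and 192 CPM in the F4/80low libraries, higher in F4/80high in each pair. The 9 macrophage genes summed to 9589, 24520 and 7180 against 12632, 12243 and 8696 CPM, with *Lyz2* the most abundant, so that F4/80high replicate 2 was highest but pairs 1 and 3 had the lower sum in F4/80high. The part of this difference in macrophage RNA in the members' values was not tested. *Adgre1* itself measured 273, 539 and 360 CPM in the F4/80high libraries and 243, 327 and 183 CPM in the F4/80low libraries. Each F4/80high library exceeded its partner, but the subsets overlapped, and the log2 fold change of 0.67 had an adjusted p of 0.664 (edgeR with batch).

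*Mertk* and *Gas6* were higher in F4/80high in every replicate pair, *Mertk* by 2.15 to 3.88 times and *Gas6* by 4.12 to 30.1 times. *Mfge8* and *Timd4* were lower there in every pair, *Mfge8* by 1.27 to 2.18 times and *Timd4* by 1.72 to 2.11 times. *Axl*, *Tyro3* and *Pros1* had no common direction. Only the differences of *Mertk* and *Gas6* passed a test across all genes, and they did so with some of the models.

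The subsets were compared by edgeR's quasi-likelihood test with batch as a term over 14645 protein-coding genes, and a gene was called when its adjusted p was below 0.05 and its log2 fold change was above 1 in size. Positive values are higher in F4/80high. All 7 members passed the filter of at least 10 counts over the 6 libraries. With batch as the term, 0 of the 7 members and 0 of the 14645 genes were called (0.00%), and the lowest adjusted p of any gene was 0.434. At an unadjusted p under 0.05 stood 3 members, of 1113 genes in all (7.60%). *Mertk* and *Gas6* were among 480 on the F4/80high side (3.28%), *Mfge8* among 633 on the F4/80low side (4.32%). With a replicate block (a term for the replicate number instead of batch), *Mertk* and *Gas6* were called, among 76 genes (0.519%), of which 34 were higher in F4/80high (0.232%) and 42 lower (0.287%), and the same 3 members had an unadjusted p under 0.05, among 1452 genes (9.91%). DESeq2 with the block called the same 2 members, among 356 genes (2.43%). The fit with batch without F4/80high replicate 1 also called *Mertk* and *Gas6*, among 57 genes (0.396%). DESeq2 with the batch term called *Mertk* alone of the members, among 150 genes (1.02%). In all 3 replicate pairs *Mertk* and *Gas6* were higher in F4/80high, as were 2347 genes (16.0%), and *Mfge8* and *Timd4* were higher in F4/80low, as were 2323 genes (15.9%). No member separated the subsets in every library, while 337 genes lay higher in every F4/80high library (2.30%) and 424 lower (2.90%). The members' log2 fold changes had a median of 0.10, beside 0.01 over all genes tested.

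**Figure D1:**
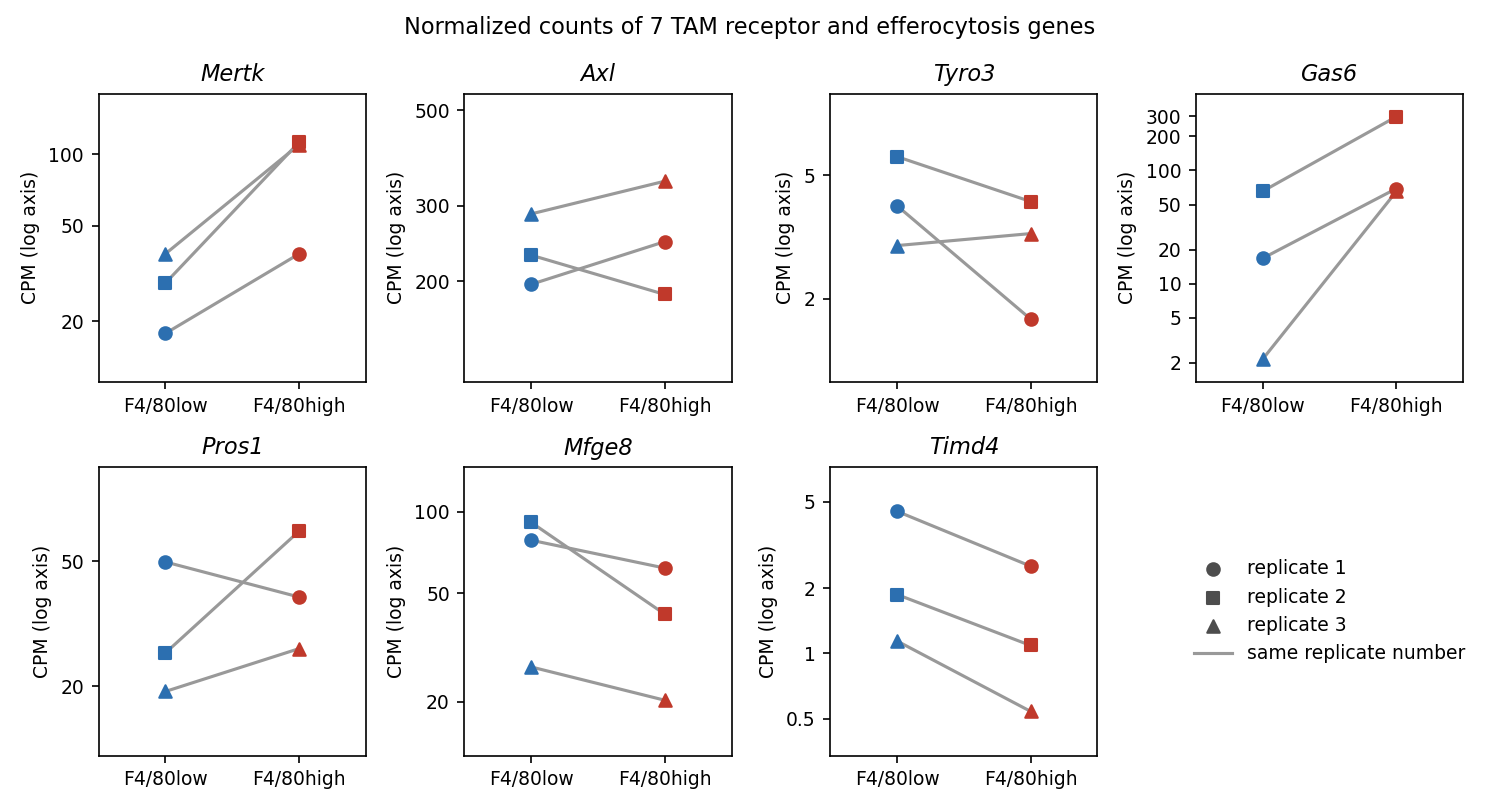
Each panel plots the CPM (log axis) of 1 gene in the F4/80low and F4/80high libraries, with a line joining the 2 libraries of 1 replicate number. The lines of *Mertk* and *Gas6* climb and those of *Mfge8* and *Timd4* descend in 3 of 3 pairs, while those of *Axl*, *Tyro3* and *Pros1* go both ways.

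The promoters of *Mertk* and *Gas6*, the members called with the replicate block, and of *Axl*, the receptor with the smallest fold change, are shown as the reference gives them. Each run is the 250 bases before the RefSeq start of the gene in GRCm38.p6, 5′ to 3′ on the strand of the gene. Capitals mark matches on either strand to GGGCGG, the GC box, or to GAGGAA, the core recognised by the macrophage factor PU.1.
Mertk, chr2:128698665-128698914, plus strand: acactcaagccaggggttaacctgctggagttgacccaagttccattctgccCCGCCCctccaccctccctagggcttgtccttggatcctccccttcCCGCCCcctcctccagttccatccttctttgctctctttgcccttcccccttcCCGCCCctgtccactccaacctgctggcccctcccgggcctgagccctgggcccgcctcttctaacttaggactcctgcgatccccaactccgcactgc
Gas6, chr8:13494536-13494785, minus strand: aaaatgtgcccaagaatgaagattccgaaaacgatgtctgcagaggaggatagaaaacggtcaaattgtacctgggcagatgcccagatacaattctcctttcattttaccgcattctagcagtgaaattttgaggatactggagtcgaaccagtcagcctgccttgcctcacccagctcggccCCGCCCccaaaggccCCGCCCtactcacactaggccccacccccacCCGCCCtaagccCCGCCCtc
Axl, chr7:25788734-25788983, minus strand: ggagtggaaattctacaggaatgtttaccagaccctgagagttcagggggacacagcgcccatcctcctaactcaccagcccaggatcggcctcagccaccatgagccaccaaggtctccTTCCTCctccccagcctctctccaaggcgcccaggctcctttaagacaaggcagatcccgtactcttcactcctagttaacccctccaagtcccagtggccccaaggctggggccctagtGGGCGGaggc
The GC box occurred 3 times before *Mertk*, 4 times before *Gas6* and 1 time before *Axl*, and in 6 of the 7 members' promoters, against 32.7% of 32851 promoters of this length. The PU.1 core letters occurred before *Axl* and *Mfge8* only, against 23.3% of promoters. The letters TGCTGA, a core of MAF factors, occurred 2 times before *Timd4* and before no other member, against 16.1% of promoters. AGGTCA, a core of nuclear receptors, was also found before *Timd4* alone, against 14.0%. The *Timd4* promoter was the only one of the 7 without a GC box. Matches of 1 motif that overlap each other were all counted, and no binding was measured.

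The receptors did not move together, and *Mertk* was the only one of the 3 with 1 direction in every pair. *Mertk* lies on chromosome 2 of GRCm38 at 128698956 to 128802894, plus strand (ENSMUSG00000014361). It measured 38.2, 112 and 109 CPM in the F4/80high libraries and 17.7, 28.8 and 38.2 CPM in the F4/80low libraries. F4/80high replicates 2 and 3 stood well above the rest, and F4/80high replicate 1 was level with the highest F4/80low library, so the subsets touched. The means were 86.5 ± 41.9 and 28.3 ± 10.2 CPM (SD, n = 3), and the log2 fold change was 1.63 ± 0.39 (SE, edgeR with batch, unadjusted p = 0.00230, adjusted p = 0.440). With the replicate block it was 1.53 ± 0.24 with an adjusted p of 0.0381 (edgeR), and DESeq2 with batch gave an adjusted p of 0.0160. Within the pairs *Mertk* was 2.15 times as high in F4/80high in pair 1 (95% interval 1.97 to 2.36), 3.88 times in pair 2 (3.65 to 4.14) and 2.86 times in pair 3 (2.53 to 3.25). These intervals cover counting error only, and each lay above 1. The call depended on which libraries entered. Without F4/80high replicate 1 the fit with batch gave 1.96 with an adjusted p of 0.0477, and without F4/80high replicate 2 it gave 1.03 with an adjusted p of 0.486. The block gave 1.74 without pair 1 (adjusted p = 7.78e-04), 1.27 without pair 2 (0.0859) and 1.53 without pair 3 (0.104, edgeR), the last as large as with all pairs. In batch 1 alone the log2 fold change was 1.69, and batch 2 held 1 pair. Of the genes that overlap *Mertk*, *Gm14011* on the other strand had at most 10 counts and *Gm23172* at most 7 in any library, and neither shares its exons.

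*Axl*, the receptor that prefers Gas6 and is induced in many inflamed macrophages, was the most abundant receptor per length and had the smallest fold change. It lies on chromosome 7 at 25757273 to 25788705, minus strand (ENSMUSG00000002602). The F4/80high libraries measured 247, 186 and 342 CPM and the F4/80low libraries 197, 230 and 287 CPM. The highest and the lowest library were both F4/80high, so the F4/80low values lay inside the F4/80high range. The log2 fold change was 0.10 ± 0.22 (SE, edgeR with batch, adjusted p = 0.941), and in pair 2 the direction was opposite to pairs 1 and 3 (log2 ratios of 0.33, -0.30 and 0.25).

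*Tyro3*, the receptor best known from neurons and dendritic cells, was near the low end of detection. It lies on chromosome 2 at 119797733 to 119818104, plus strand (ENSMUSG00000027298). It measured 1.72, 4.12 and 3.24 CPM in the F4/80high libraries and 3.99, 5.75 and 2.97 CPM in the F4/80low libraries, from 26 to 234 counts a library. The subsets overlapped and the log2 fold change was -0.47 ± 0.55 (SE, edgeR with batch, adjusted p = 0.867). Within pairs 1, 2 and 3 the ratio of F4/80high to F4/80low was 0.430 (95% interval 0.319 to 0.575), 0.716 (0.592 to 0.866) and 1.09 (0.625 to 1.92). The intervals cover counting error only, and in pair 3 no difference was detectable at this depth.

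Both ligands were measured in both subsets, and *Gas6* showed the widest spread of the 7 genes. *Gas6* lies on chromosome 8 at 13465374 to 13494490, minus strand (ENSMUSG00000031451). It measured 69.2, 298 and 65.3 CPM in the F4/80high libraries and 16.8, 65.6 and 2.17 CPM in the F4/80low libraries. F4/80high replicate 2 was far above the other libraries, and F4/80low replicate 3 was far below them with 19 counts. The F4/80low library of replicate 2 was level with the lower F4/80high libraries, so the subsets overlapped although each pair differed. The means were 144 ± 133 and 28.2 ± 33.2 CPM (SD, n = 3), and the log2 fold change was 2.88 ± 0.77 (SE, edgeR with batch, unadjusted p = 0.00434, adjusted p = 0.461). With the replicate block it was 2.81 ± 0.48 with an adjusted p of 0.0474 (edgeR), and DESeq2 with batch gave 0.143. Within the pairs *Gas6* was 4.12 times as high in F4/80high in pair 1 (95% interval 3.79 to 4.49), 4.55 times in pair 2 (4.36 to 4.74) and 30.1 times in pair 3 (19.1 to 50.4). Pair 3 alone carried the large ratio. The block without pair 3 gave a log2 fold change of 2.12 with an adjusted p of 0.0328, and without pair 2 a larger one of 3.21 with an adjusted p of 0.0653 (edgeR). Without F4/80high replicate 1 the fit with batch gave 3.60 with an adjusted p of 0.0478. In batch 1 alone the log2 fold change was 2.16. *Tmem255b* on the other strand overlaps 3100 bases at the end of *Gas6*, including exons, and had at most 1 count in any library.

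*Pros1*, which encodes protein S, an anticoagulant as well as a TAM ligand, lies on chromosome 16 at 62854307 to 62929346, plus strand (ENSMUSG00000022912). It measured 38.5, 62.3 and 26.4 CPM in the F4/80high libraries and 49.8, 25.6 and 19.3 CPM in the F4/80low libraries. The subsets overlapped and pair 1 went against the other pairs, with log2 ratios of -0.37, 1.29 and 0.45. The log2 fold change was 0.43 ± 0.31 (SE, edgeR with batch, adjusted p = 0.753).

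The remaining bridge and the phosphatidylserine receptor lay on the other side. *Mfge8* lies on chromosome 7 at 79133768 to 79149060, minus strand (ENSMUSG00000030605). It measured 62.0, 41.9 and 20.2 CPM in the F4/80high libraries and 78.5, 91.3 and 26.8 CPM in the F4/80low libraries. Each F4/80low library exceeded its partner, although F4/80low replicate 3 lay below F4/80high replicates 1 and 2. The log2 fold change was -0.61 ± 0.25 (SE, edgeR with batch, unadjusted p = 0.0336, adjusted p = 0.623), and pair 2 gave most of it (log2 ratios of -0.34, -1.12 and -0.41).

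*Timd4* lies on chromosome 11 at 46810800 to 46844332, plus strand (ENSMUSG00000055546). It measured 2.52, 1.09 and 0.541 CPM in the F4/80high libraries and 4.52, 1.87 and 1.14 CPM in the F4/80low libraries. The 3 pairs gave similar log2 ratios of -0.84, -0.78 and -1.08, and the level differed more between replicate numbers than between the subsets. Pair 3 rested on 5 and 10 counts, with a ratio interval of 0.127 to 1.52 that includes no difference. The log2 fold change was -0.89 ± 0.72 (SE, edgeR with batch, adjusted p = 0.786).

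**Figure D2:**
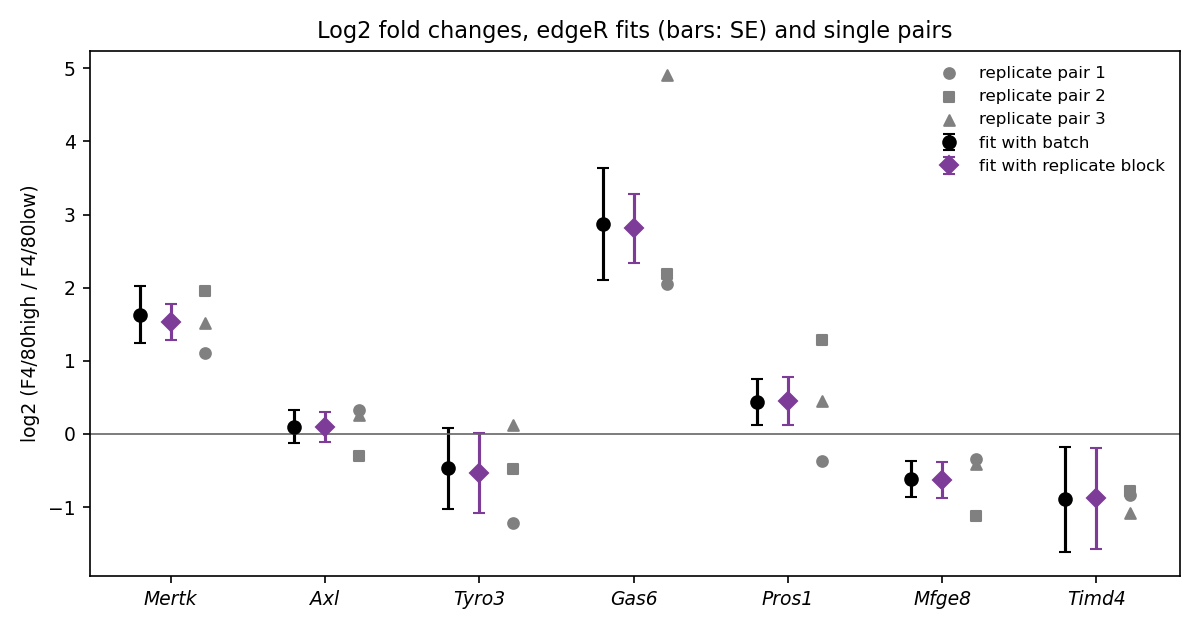
Log2 fold changes of the 7 genes (F4/80high over F4/80low) from edgeR with batch (circles) and with the replicate block (diamonds), with bars of 1 SE, beside the log2 CPM ratio of each replicate pair (grey). *Mertk* at 1.63 and *Gas6* at 2.88 keep a similar size with a smaller SE under the block, and the *Gas6* ratio of pair 3 stands apart at 4.91.

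Levels of different genes were compared as RPKM, CPM per kilobase of the gene length in the deposited tables. *Axl* was the highest with a mean of 49.3 RPKM over the 6 libraries, followed by *Gas6* at 33.2, *Mfge8* at 25.2, *Mertk* at 13.2, *Pros1* at 9.04, *Timd4* at 0.896 and *Tyro3* at 0.586. *Pros1* exceeded *Timd4* in 6 of 6 libraries by at least 5.85 times, while *Gas6* came down to 0.836 RPKM in F4/80low replicate 3, beside 0.525 for *Timd4* and 0.479 for *Tyro3* in that library. No other neighbours kept this order in all 6 libraries. *Axl* exceeded *Gas6* in 5 of 6 libraries, *Gas6* exceeded *Mfge8* in 2 of 6, all of them F4/80high, *Mfge8* exceeded *Mertk* in 4 of 6, and *Timd4* exceeded *Tyro3* in 3 of 6. The place of *Mfge8* depends on its length, which is 2125 bases in the tables and 4694 bases as merged exons of GENCODE M21. On the M21 lengths its mean was 11.4 RPKM, below *Mertk*.

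**Figure D3:**
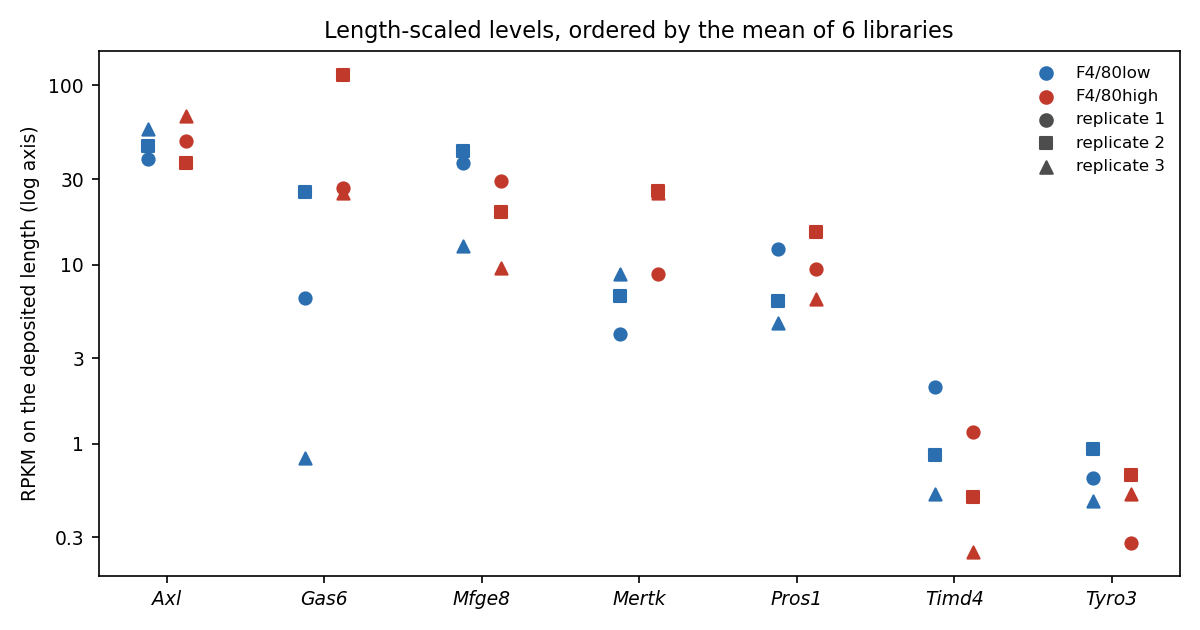
RPKM (log axis) of each gene in the F4/80low (blue) and F4/80high (red) libraries, ordered by the mean of the 6 libraries, with the marker giving the replicate. *Timd4* and *Tyro3* lie below *Pros1* in every library, and *Gas6* covers the widest range, from 0.836 to 115 RPKM.

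Ratios of 2 genes within a library do not depend on how libraries are scaled. *Mertk* counts were 0.154, 0.601 and 0.320 of the *Axl* counts in the F4/80high libraries and 0.0902, 0.125 and 0.133 in the F4/80low libraries. The 3 F4/80high libraries all lay above the 3 F4/80low libraries, as they did for 161 of 14644 genes set against *Axl* (1.10%). The difference of the log2 ratios was 1.43 with an exact two-sided permutation p of 0.1, the smallest that 3 against 3 allows. It was positive in 3 of 3 pairs (0.77, 2.26 and 1.26), and the exact sign-flip p of 0.25 is likewise the smallest possible. As a share of the summed RPKM of the receptors, *Mertk* made up 15.1%, 40.7% and 26.9% in the F4/80high libraries and 9.34%, 12.5% and 13.3% in the F4/80low libraries, with nearly all of the rest *Axl*.

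*Gas6* counts were 1.80, 4.79 and 2.48 times the *Pros1* counts in the F4/80high libraries and 0.338, 2.57 and 0.112 times in the F4/80low libraries. *Gas6* thus exceeded *Pros1* in every F4/80high library and in 1 of the F4/80low libraries, that of replicate 2, which overlapped the F4/80high range. The difference of the log2 ratios was 2.58 (exact two-sided permutation p = 0.3, n = 3), and it ranged from 1.57 to 3.81 over left-out libraries. It was positive in each pair (2.41, 0.90 and 4.43), and the exact sign-flip p of 0.25 is the smallest possible. Per length, *Gas6* was 73.9%, 88.3% and 79.6% of the summed ligand RPKM in the F4/80high libraries and 34.7%, 80.2% and 15.1% in the F4/80low libraries.

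**Figure D4:**
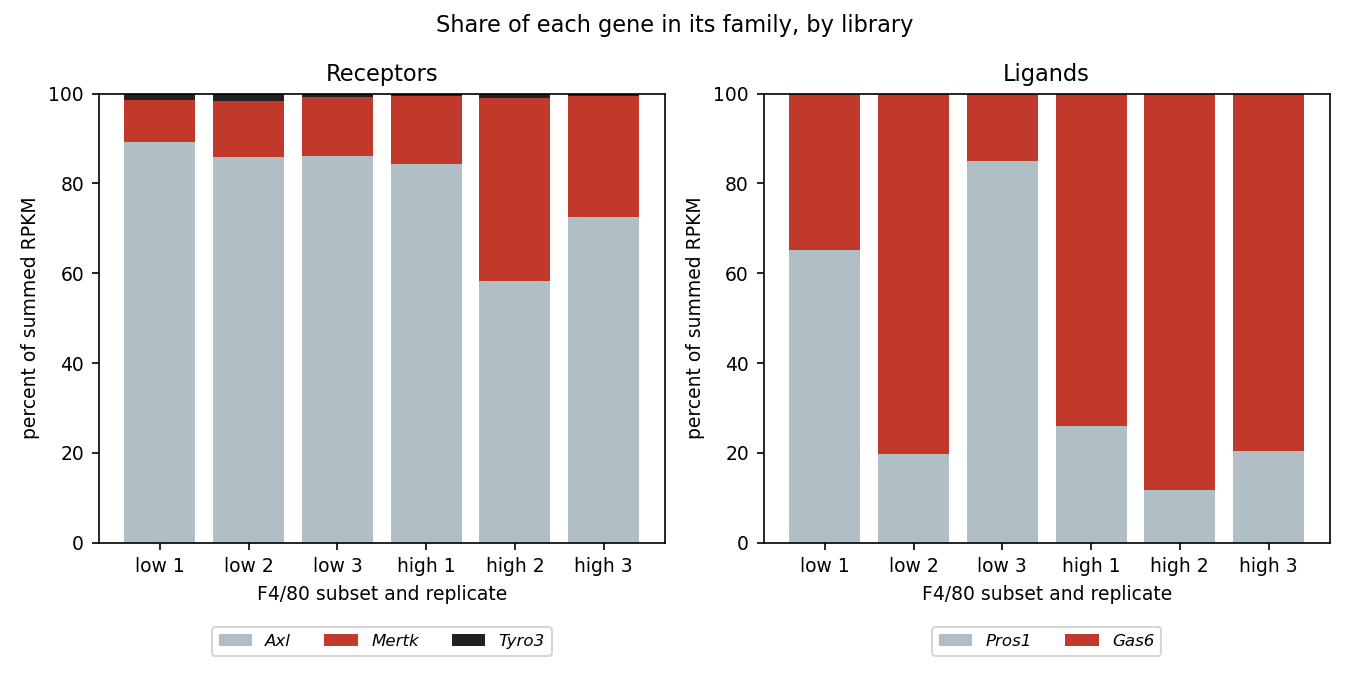
Stacked bars give each receptor (left) and each TAM ligand (right) as a percent of the summed RPKM of its family in each library. The *Mertk* part is larger in the F4/80high bars (15.1% to 40.7%) than in the F4/80low bars (9.34% to 13.3%), while the *Gas6* part varies from 15.1% to 80.2% among the F4/80low libraries.

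Beyond the 7 members, 99 other genes of apoptotic cell clearance were taken in 8 roles, of which 97 were tested. They were chosen with earlier results of these data known. Their shares beside those of all genes therefore describe the list and are no test of it. With batch as the term 0 were called, as for all genes. At an unadjusted p under 0.05 stood 14 on the F4/80high and 8 on the F4/80low side, 22.7% of the list beside 7.60% of all genes. In all 3 pairs F4/80high was higher for 22.7% and lower for 27.8%, beside 16.0% and 15.9%. With the replicate block 7 were called (7.22% beside 0.519%), all higher in F4/80high, and of these 7 DESeq2 with batch called *Stab1* alone. That model called 5 genes of the list, and the other 4 (*P2ry2*, *Thbs1*, *Cd24a* and *Siglecg*) were lower in F4/80high. The list was balanced, with 50 genes higher and 47 lower in F4/80high and a median log2 fold change of 0.02.

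Of the genes that act beside the TAM ligands as bridges, the complement C1q subunits coat dying cells and were all called with the block, but none by DESeq2 with batch (adjusted p = 0.330, 0.0617 and 0.330 for *C1qa*, *C1qb* and *C1qc*). *C1qa* measured 971, 2467 and 543 CPM in the F4/80high libraries and 199, 976 and 83.2 CPM in the F4/80low libraries, and its log2 fold change was 2.11 ± 0.27 with the block (SE, edgeR, adjusted p = 0.0272). Like *Gas6*, it was highest in F4/80high replicate 2 and lowest in F4/80low replicate 3. *C1qb* and *C1qc* had log2 fold changes of 1.87 and 2.24 with the block (adjusted p = 0.0283 and 0.0300). *Thbs1*, a matrix bridge to CD36 and the vitronectin receptor, lay the other way at 1336 ± 408 CPM in F4/80high against 2978 ± 1124 CPM in F4/80low (SD, n = 3). Its log2 fold change was -1.17 ± 0.28 (SE, edgeR with batch, adjusted p = 0.440), and DESeq2 with batch called it with an adjusted p of 0.0142.

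Of 17 other engulfment receptors, *Stab1* and *Trem2* were called with the block. *Stab1*, a scavenger receptor that binds phosphatidylserine, measured 169, 632 and 187 CPM in the F4/80high libraries and 69.1, 171 and 49.6 CPM in the F4/80low libraries. Its log2 fold change with the block was 1.70 ± 0.21 (SE, edgeR, adjusted p = 0.0272), and DESeq2 with batch called it too (adjusted p = 0.0247). *Trem2*, a lipid receptor of macrophages, had a log2 fold change of 1.28 with the block (edgeR, adjusted p = 0.0381) and an adjusted p of 0.160 in DESeq2 with batch. *Cd300lf*, a phosphatidylserine receptor of myeloid cells, was higher in F4/80low in 3 of 3 pairs at 188 ± 82.3 against 367 ± 169 CPM (SD, n = 3). Its adjusted p was 0.0652 with the block (edgeR) and 0.00553 in DESeq2 with batch, where its log2 fold change of -0.96 missed the limit on size.

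The receptors for find-me signals, which draw phagocytes to dying cells, had the highest median of the roles at 0.85, over 7 genes. *Cx3cr1*, the fractalkine receptor, measured 264 ± 186 CPM in F4/80high against 120 ± 80.7 CPM in F4/80low (SD, n = 3) and was called with the block (log2 fold change 1.13, edgeR, adjusted p = 0.0463, DESeq2 with batch 0.115). *P2ry2*, a nucleotide receptor, lay the other way at -1.35 ± 0.32 (SE, edgeR with batch, adjusted p = 0.440) and was called by DESeq2 with batch (adjusted p = 0.0222). *P2ry6* and *S1pr1*, receptors for nucleotides and sphingosine 1-phosphate, had log2 fold changes of 1.06 and 1.04 and were called neither by an edgeR fit nor by DESeq2 with batch.

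The don't-eat-me genes, whose products restrain engulfment, lay mostly on the F4/80low side, 5 of 6, with a median of -0.22. *Cd24a* measured 338, 151 and 181 CPM in the F4/80high libraries and 631, 870 and 453 CPM in the F4/80low libraries, with no overlap, as for 2.90% of all genes in this direction. *Siglecg*, whose product binds CD24, measured 56.7, 24.5 and 16.3 CPM against 88.6, 121 and 47.5 CPM. Both were called by DESeq2 with batch (adjusted p = 0.00197 and 0.0118) and by neither edgeR fit, with an adjusted p of 0.0652 for *Cd24a* with the block. Of the eosinophil genes listed further on, 5 of 7 were likewise lower in F4/80high in each pair. Their summed CPM was also lower in each pair, at 177, 90.0 and 113 against 372, 603 and 252. The part of eosinophils in the *Cd24a* and *Siglecg* values was not tested. *Cd47* and *Sirpa*, the best known pair of this kind, had log2 fold changes of -0.31 and 0.22.

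The engulfment machinery held 0 of 17 genes called with the block and had a median of -0.07. *Dock5* and *Abca7*, a Rac activator and a lipid transporter used in engulfment, had log2 fold changes of -0.81 and -0.88, and *Dock1* of 0.34. Corpse digestion (17 genes, median 0.05) also held none called with the block. *Dnase2a*, the lysosomal DNase that degrades engulfed DNA, measured 44.0 ± 16.8 and 22.2 ± 4.43 CPM (SD, n = 3), and *Rubcn*, which acts in LC3-associated phagocytosis, had a log2 fold change of 0.97. Of the genes that export engulfed lipid, *Apoe* was called with the block (edgeR, adjusted p = 0.0347, DESeq2 with batch 0.653) at 5815 ± 3680 against 2657 ± 2425 CPM (SD, n = 3) and *Abca1*, the cholesterol exporter, measured 146 ± 73.1 against 79.5 ± 26.2 CPM. The genes for TAM signalling, receptor shedding and carboxylation of the ligands (13 genes, 10 higher in F4/80high, median 0.22) held none called by either edgeR fit or by DESeq2 with batch. *Ggcx*, the carboxylase that activates Gas6 and protein S, had a log2 fold change of 0.57, *Adam17*, the protease that sheds Mertk, of 0.43, and *Plcg2* of -0.65.

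**Figure D5:**
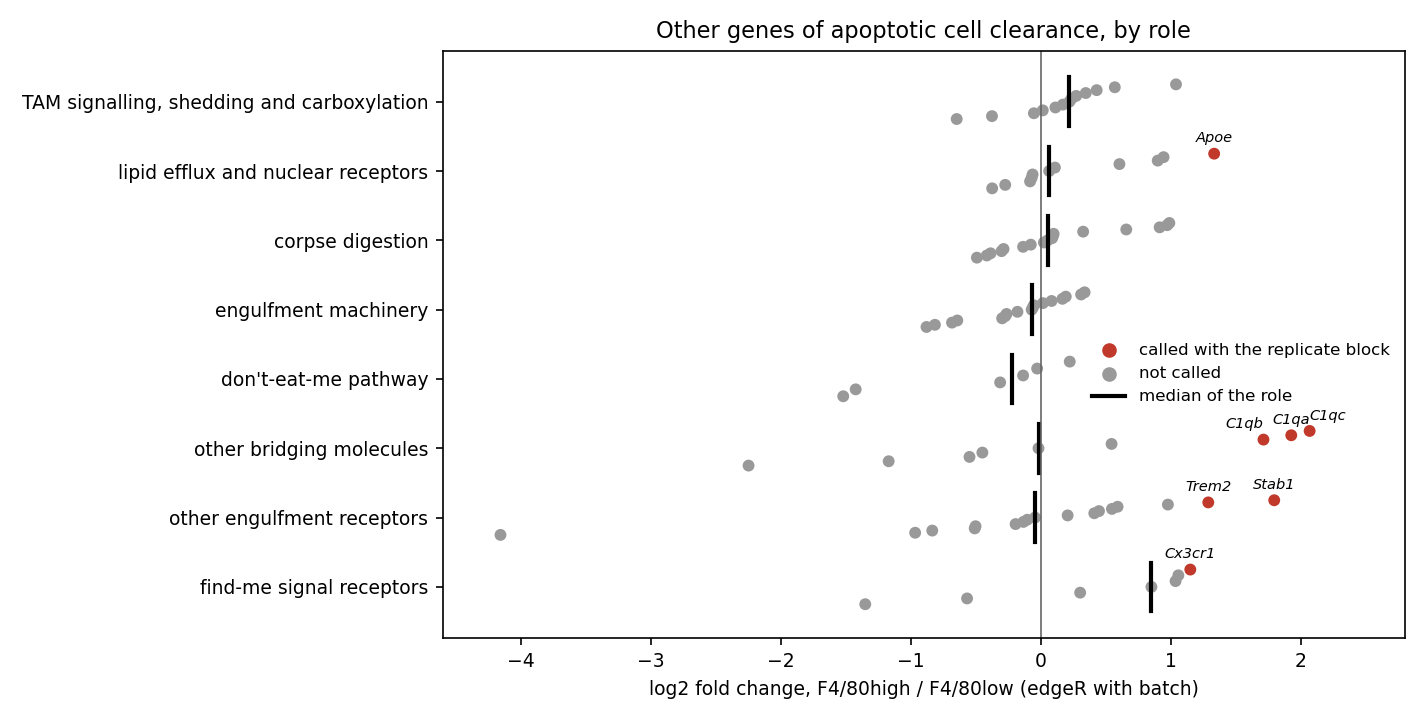
Log2 fold changes (edgeR with batch) of 97 other efferocytosis genes by role, with a bar at the median of each role and the 7 genes called with the replicate block in red. All 7 lie on the F4/80high side, among the find-me receptors, engulfment receptors, bridging molecules and lipid genes, and the gene farthest left, *Adgrb1* at -4.16, reached at most 0.570 CPM.

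Genes of other cells were also present. The CD45+ gate was meant to remove cells that are not immune cells, and the lineage gate other lineages. The study counts CD45+ CD11b+ cells as myeloid, so that gate does not by itself remove other myeloid cells. In bulk samples fewer cells of a type and less RNA per cell cannot be told apart. Of 6 genes of resident macrophages, 3 were higher in F4/80high in 3 of 3 pairs, beside 16.0% of all genes tested. The summed CPM of the 6 was 359, 2405 and 179 in the F4/80high libraries and 423, 483 and 156 in the F4/80low libraries, with *F13a1* the most abundant. Like *Gas6*, this sum was highest in F4/80high replicate 2. *Folr2* measured 33.5, 209 and 5.95 CPM in the F4/80high libraries and 8.46, 39.9 and 0.570 CPM in the F4/80low libraries, with the highest and the lowest library the same as for *Gas6*. *Timd4*, often found on the same resident cells as *Folr2* and *Lyve1*, lay opposite to *Folr2* in each pair and opposite to *Lyve1* in pairs 2 and 3. In pair 1 *Lyve1* was lower in F4/80high, as *Timd4* was, at 2.83 against 4.39 CPM. The log2 count ratio of *Timd4* to *Folr2* differed between F4/80high and F4/80low by -2.82, -3.17 and -4.27 in pairs 1, 2 and 3 and that to *Lyve1* by -0.20, -3.26 and -3.00, a comparison chosen after the values were seen and not tested. Pair 3 rested on few counts, 5 and 10 for *Timd4*, 55 and 5 for *Folr2* and 10 and 2 for *Lyve1*, and the interval of its *Timd4* ratio includes no difference.

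On the F4/80low side, 5 of 6 monocyte genes, 7 of 9 neutrophil genes, 5 of 7 eosinophil genes, 5 of 7 dendritic cell genes and 5 of 8 fibroblast genes were higher in 3 of 3 pairs, the direction of *Mfge8* and *Timd4*. Of all genes tested, 15.9% were higher in F4/80low in 3 of 3 pairs. The summed CPM in F4/80high and then F4/80low replicates 1, 2 and 3 was 177, 90.0 and 113 against 372, 603 and 252 for eosinophils, with *Ccr3* the most abundant. For neutrophils it was 1837, 748 and 688 against 3983, 2763 and 1383, with *Retnlg* the most abundant. Fibroblasts, which the CD45+ gate was meant to remove, are known to express *Gas6*, *Axl* and *Mfge8*. Their sum was 1244, 484 and 1552 against 1429, 1140 and 1930, with *Col1a2* the most abundant. The monocyte sum was 1919, 859 and 3917 against 3238, 2389 and 7806, with *Ccr2* the most abundant, and the dendritic cell sum was 271, 78.7 and 78.8 against 482, 164 and 135, with *Ccr7* the most abundant. All 5 sums were lower in F4/80high in each pair, where *Gas6* was higher. The part of these cells in the members' values was not tested.

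The lymphocyte lists kept no direction over the pairs. T and NK cell genes summed to 1232, 375 and 196 CPM in the F4/80high libraries and 418, 580 and 97.3 CPM in the F4/80low libraries (most abundant *Nkg7*), and B and plasma cell genes to 139, 58.8 and 10.9 against 80.4, 128 and 6.62 (*Cd79a*). Mast cell and basophil genes summed to 68.1, 3.07 and 97.3 against 93.0, 18.9 and 400.0 CPM (*Kit*) and endothelial genes to between 32.0 and 87.4 CPM (*Pecam1*), both lower in F4/80high in each pair, with *Tek* at 3 counts or fewer in every library. Of the melanoma genes examined, *Mlana* had 1 count in 1 library and 0 in the others, *Pmel* had 4 to 77 counts and *Sox10* 4 to 50 counts a library. *Mitf*, which macrophages also use, measured 16.5, 21.6 and 167 CPM in the F4/80high libraries and 13.3, 11.4 and 104 CPM in the F4/80low libraries. Its high values were those of replicate 3, the replicate of batch 2. Of the keratinocyte and Langerhans cell genes examined, *Dsp* was at 0 in every library and *Epcam*, the most abundant, reached 4.19 CPM.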

How the data were processed

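RNA was extracted from sorted F4/80high and F4/80low macrophages, and poly-A libraries were sequenced. For each library the authors deposited raw read counts per gene, not normalized, beside gene lengths and biotypes. Alignment was done at their sequencing center. The aligner, the counter, the use of strand, the build and the annotation are not given in the sources used here. By ID, 99.4% of the genes matched GENCODE M21 (GRCm38), which gave the biotypes and positions.

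Counts were fitted with edgeR 4.0.16 in R 4.3.3 (quasi-likelihood test, TMM, batch and subset as terms), for genes that are protein-coding in M21 with at least 10 counts over the 6 libraries. P-values were adjusted over 14645 genes by Benjamini-Hochberg, and SE is the log2 fold change divided by the root of F. The steps were tested on simulated counts. DESeq2 1.42.0 and the replicate number as a block were alternatives. The study names 3 independent experiments, and libraries with the same replicate number were taken as pairs, an inference from the labels. The correlation of deviations from subset means was 0.745, 0.729 and 0.907 in pairs 1, 2 and 3 over 10072 genes, and 0.242 within batch 1. Such deviations hold the difference between the batches, which both libraries of a pair share. The values of the pairs therefore cannot show that paired libraries came from 1 experiment, and the fits with the block rest on this pairing. Pair intervals are exact conditional binomial intervals at 95%. In the deepest and shallowest library, 3 counts were 0.0688 and 0.187 CPM of the total counts. The other CPM values use the TMM scale, on which 5 *Timd4* counts in F4/80high replicate 3, the shallowest library, were 0.541 CPM. On that scale 3 counts there stand higher than 0.187 CPM. Ratios within a library had 0.5 added to both counts.

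The 7 members, the 99 further genes and the 13 marker lists were chosen with earlier results of these data known. Named genes were the members, in each role up to 3 genes a direction by smallest p, macrophage markers, and the most abundant gene and those at 0 of each other marker list. *Folr2*, *Lyve1*, *Tek*, *Mlana*, *Pmel*, *Sox10* and *Adgrb1* were named after their values were seen. Promoters came from RefSeq (GRCm38.p6), where all 7 members matched. A few items are not reported here.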

Additional observations from a re-analysis of the deposited data

How the results depend on the processing

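The tool, the replicate term and the libraries that entered decided the calls. Against 0 genes, 0 members and 0 of the wider list with batch, the calls numbered 76, 2 and 7 in edgeR with the replicate block, 150, 1 and 5 in DESeq2 with batch, then 356, 2 and 12 in DESeq2 with the replicate block. Leaving out 1 library in turn gave 0 to 57 genes, 0 to 2 members and 0 to 3 of the wider list, and the calls came without F4/80high replicate 1. *Mertk* passed the threshold at 1.53 with the block, 1.64 in DESeq2 with batch, 1.53 in DESeq2 with the block and 1.74 with the block without pair 1 (log2 fold changes), and leaving out libraries gave 1.03 to 1.96. *Gas6* passed at 2.81 with the block, 2.90 in DESeq2 with the block, 3.29 with the block without pair 1 and 2.12 with the block without pair 3, and leaving out libraries gave 2.16 to 3.95. Over the 21 alternatives the adjusted p ran from 4.69e-06 to 1 for *Mertk* and from 2.09e-10 to 1 for *Gas6*, and neither changed sign. *Axl* turned to -0.00227 without F4/80high replicate 1 and to -0.0264 with the block without pair 1 (leaving out libraries, -0.00227 to 0.20), and *Pros1* to -0.0118 with the block without pair 2. *Tyro3*, *Mfge8* and *Timd4* stayed lower in F4/80high and uncalled under every alternative run, with ranges over left-out libraries of -0.85 to -0.09, -0.76 to -0.47 and -1.37 to -0.46, and *Pros1* of 0.17 to 0.76. The log2 ratio of *Mertk* to *Axl* ranged from 0.95 to 1.93 and that of *Gas6* to *Pros1* from 1.57 to 3.81 over left-out libraries. The block changed no other member's call. The settings with the block without a pair, the M21 length and the ratio of *Timd4* to *Folr2* were chosen after seeing the data. *Timd4* could not be fitted with at least 10 counts in every library, since 5 counts in F4/80high replicate 3 removed it. The causes were not tested. Depth limits single values of *Timd4*, *Gas6* and *Tyro3*, which had 5, 19 and 26 counts in their lowest library.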

Other observations

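Within batches, many genes followed the libraries as the members did. Pearson correlations of log2 CPM over the 6 libraries, after the batch means were subtracted, exceeded 0.95 with 282 of 10071 genes for *Mertk* and with 279 for *Gas6*, 264 for *Timd4*, 156 for *Mfge8*, 75 for *Pros1*, 43 for *Axl* and 24 for *Tyro3*. The libraries share subsets and experiments, so these values describe likeness over few points. Among the 3 nearest genes of each member were *Nop56* and *Racgap1* for *Mertk*, *Dcbld2*, *Mien1* and *U2af1* for *Axl*, *Slc41a3*, *Abhd5* and *Rorb* for *Tyro3*, and *1500011K16Rik* and *Uap1l1* for *Gas6*. For *Pros1* they were *Thrap3*, *Rhbdd1* and *Wdr7*, for *Mfge8* *Gapt*, *G0s2* and *Dmp1*, and for *Timd4* *Sh3bp1*, *Mbp* and *Lrg1*.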
